A study of Mus musculus with 8 samples.

Results

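Tight junctions and gap junctions join neighbouring epithelial cells, and their genes were followed here in mouse embryonic stem (ES) cells before and after treatment with retinoic acid (RA). The set was chosen by gene name and holds the claudins, occludin (*Ocln*), the junctional adhesion molecules *F11r*, *Jam2* and *Jam3*, plaque proteins such as *Tjp1*, *Tjp3* and *Cgn*, and the connexins. These were 53 genes of the 36406 gene names on the array, with 60 of its 55681 probes, and each gene was represented by its brightest probe over the 8 arrays. RNA was measured on Agilent 1-colour mouse expression arrays, and the comparison asks which transcripts change when ES cells leave self-renewal. The cells were of a single line, E14Tg2A.4, and no genetic alteration is named for the samples used here. One group of 4 cultures was left untreated and the other group of 4 cultures received RA for 72 h, and the methods describe the 4 samples of a condition as biological replicates. According to the methods RA was given in medium lacking leukemia inhibitory factor (LIF), which ES cells need for self-renewal, so that the effects of RA and of LIF withdrawal cannot be told apart. The measurements are of bulk RNA from a whole culture, so that a smaller share of cells of one kind and less RNA per cell cannot be told apart.

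In a tight junction, claudins polymerise into strands that seal the space between cells, occludin and the JAM proteins sit in the same membrane belt, and the Tjp (ZO) proteins and cingulin link the strands to actin on the inside. Gap junctions are channels made of connexins, through which ions and small metabolites pass directly from cell to cell. ES cells carry E-cadherin and grow as epithelium-like colonies, and both kinds of junction are known from the early mouse embryo, where the outer cells form the first sealed epithelium.

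Between 56.7% and 62.7% of the spots that are not controls were well above background per array, as the scanner software flags them, and no spot was saturated. Values are log2 intensities relative to the 75th percentile of their array, and a difference is RA minus untreated on that scale. A gene was called at an FDR of 0.05 over all probes, by limma, with a fold change above 1.5. On this scale the median difference of all genes was -0.28, whereas after quantile normalization the median over all probes was -0.0026 in place of -0.28, so that a difference of 0 here lies above the middle of the array. The treatment was visible in the markers: all 6 ES cell genes examined fell, *Pou5f1* by 5.54, and all 6 genes that respond to RA rose, *Cyp26a1* by 6.09.

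The promoters of 2 pairs of adjacent genes and of another claudin are shown by sequence, because each lies beside another junction gene. *Gjb2* and *Gjb6* lie next to each other and both rose, *Cldn4* and *Cldn3* lie next to each other and only *Cldn3* was called, although the difference between them was not tested, and *Cldn6*, typical of early embryonic epithelia, rose together with its own neighbour *Cldn9*. The 250 bases before the annotated start of each gene are from RefSeq on GRCm38.p6, written 5′ to 3′ along the gene's strand. Capitals mark the E-box CAGGTG, a kind of site bound by Snai and Zeb repressors and read on the other strand as CACCTG, and the half-site of retinoid receptors, AGGTCA, read on the other strand as TGACCT.
Gjb2, chr14:57104703-57104952, minus strand: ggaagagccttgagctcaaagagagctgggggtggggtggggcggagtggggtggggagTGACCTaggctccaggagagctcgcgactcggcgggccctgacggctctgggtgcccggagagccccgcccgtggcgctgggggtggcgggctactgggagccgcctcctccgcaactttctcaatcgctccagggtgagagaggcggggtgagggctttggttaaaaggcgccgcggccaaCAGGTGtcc
Gjb6, chr14:57133612-57133861, minus strand: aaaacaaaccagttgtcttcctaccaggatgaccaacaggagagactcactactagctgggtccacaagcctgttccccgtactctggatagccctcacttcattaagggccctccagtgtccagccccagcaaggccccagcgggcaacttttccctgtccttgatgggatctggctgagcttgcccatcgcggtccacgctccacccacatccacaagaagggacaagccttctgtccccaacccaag
Cldn4, chr5:134946935-134947184, minus strand: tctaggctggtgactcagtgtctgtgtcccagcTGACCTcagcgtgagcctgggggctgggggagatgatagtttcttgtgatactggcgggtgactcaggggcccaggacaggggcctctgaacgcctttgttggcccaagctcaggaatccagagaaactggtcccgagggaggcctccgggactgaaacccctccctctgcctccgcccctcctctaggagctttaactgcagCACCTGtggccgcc
Cldn3, chr5:134985964-134986213, plus strand: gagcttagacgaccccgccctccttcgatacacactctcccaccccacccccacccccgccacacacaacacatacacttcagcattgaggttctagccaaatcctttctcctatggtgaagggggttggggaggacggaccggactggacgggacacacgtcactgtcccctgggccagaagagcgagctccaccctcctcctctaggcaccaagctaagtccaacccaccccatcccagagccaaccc
Cldn6, chr17:23679115-23679364, plus strand: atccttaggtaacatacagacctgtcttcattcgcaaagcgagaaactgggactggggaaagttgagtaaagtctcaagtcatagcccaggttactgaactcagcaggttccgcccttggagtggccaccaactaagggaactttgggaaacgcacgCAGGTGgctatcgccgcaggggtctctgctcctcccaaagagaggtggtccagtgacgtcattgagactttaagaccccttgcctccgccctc

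*Gjb2* and *Cldn4* each held 1 E-box and 1 half-site in this window, *Cldn6* held 1 E-box, and *Gjb6* and *Cldn3* held neither. Of the 53 genes, 36 had a promoter in the table, with 50 starts in all. An E-box was found at 12 of these 50 starts (24.0%), against 17.2% of all 32851 promoters in the table, and a half-site at 11 (22.0%), against 4607 of the 32851. Both motifs share the letters AGGT and were counted separately. A match is a stretch of letters and no measure of binding.

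Of the 53 genes, 15 were called higher and 10 lower after RA, and 28 were not called. Over all genes 36.1% were called, 13.9% higher and 22.1% lower. Only 33 of the 53 genes were well above background on all 4 arrays of a condition. The median difference over all 53 genes was 0.012, and 0.0009 with genes that were dim in a condition at their bound, beside -0.28 for all genes on the array. The arrays of the 2 conditions did not overlap for 15 of the 53 genes that were higher and 9 that were lower, against 15.3% and 25.3% of all genes. Quantile normalization gave 16 higher and 5 lower, and over the whole array the share of calls that were higher moved from 37.4% to 48.4%.

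**Figure D1:**
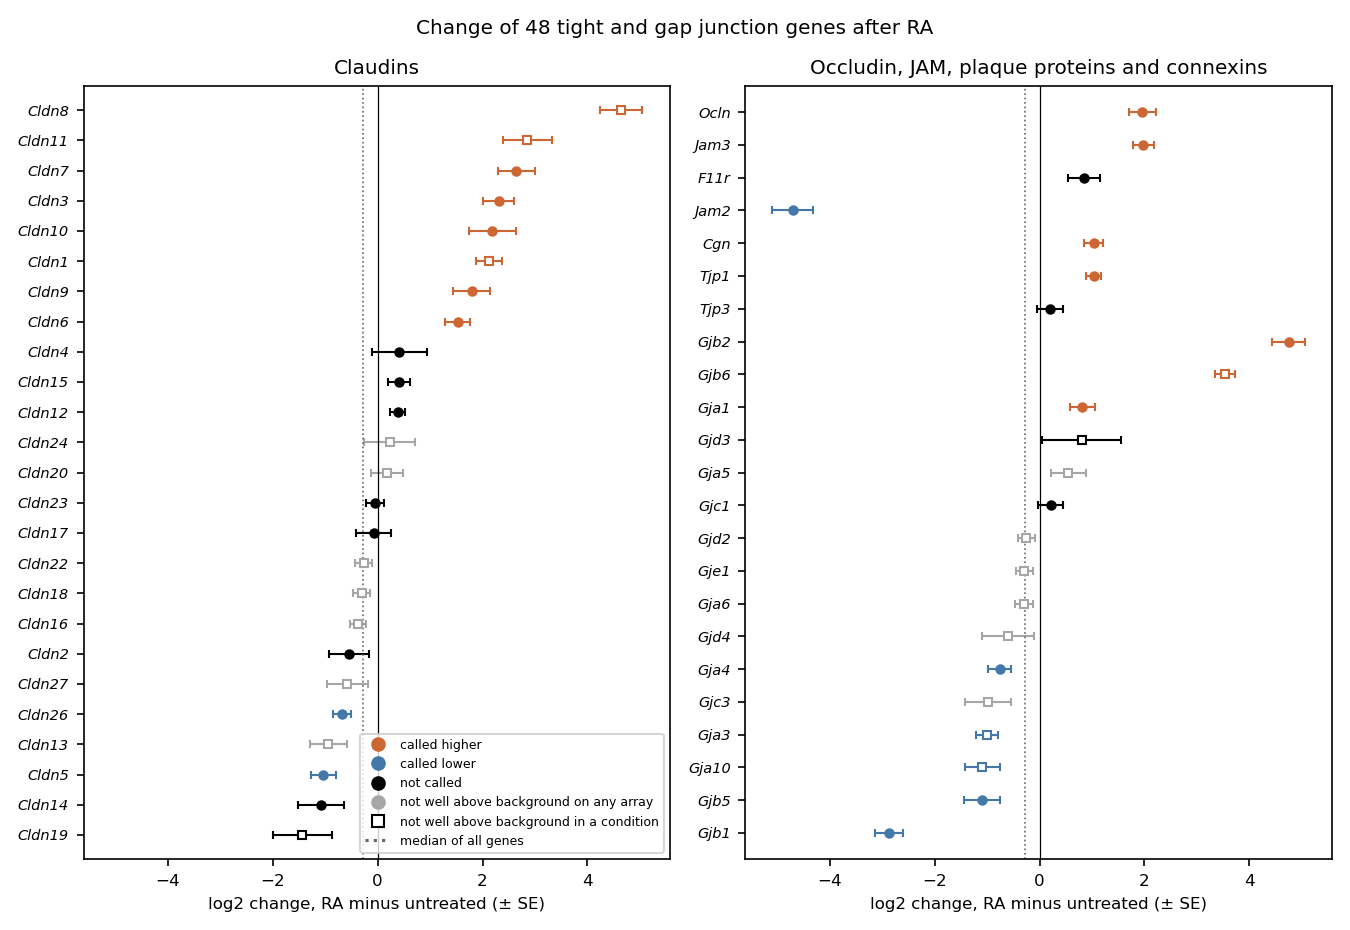
Difference in log2 intensity, RA minus untreated, with its standard error for 48 of the 53 genes (4 arrays per condition). Open squares are genes that were not well above background on any array of at least 1 condition, for which the plotted size is the measured one and not a bound, and the dotted line is the median of all genes at -0.28. Claudins that were called lie mostly to the right (8 higher, 2 lower).

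Of 25 claudins, 8 (32.0%) were called higher, 2 (8.0%) lower and 15 were not called, beside 13.9% higher and 22.1% lower of all genes. Under the other scalings and background corrections between 6 and 9 were higher and between 0 and 1 lower. *Cldn7*, a claudin found along the lateral membranes of many epithelia, stood at 0.52, 1.37, 0.47 and 2.08 in the untreated cultures and at 3.72, 3.68, 3.66 and 3.97 after RA. All 4 RA arrays were above all untreated arrays, and untreated replicates 2 and 4 were the higher ones of their group. The means were 1.11 ± 0.77 and 3.76 ± 0.15 (SD, n = 4 each), a difference of 2.65 (SE 0.34), or 6.26-fold (adjusted p = 0.000364).

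*Cldn3*, a barrier-forming claudin of simple epithelia, read 0.03, -0.43, -0.73 and 0.60 in untreated cells and 2.26, 2.00, 1.83 and 2.61 after RA. The groups were again apart, and the difference of 2.30 (SE 0.30) was a 4.94-fold rise (adjusted p = 0.000386). *Cldn6*, which is typical of embryonic epithelia and pluripotent cells, read 1.22, 1.14, 1.33 and 1.95 in untreated cells and 3.13, 2.43, 3.08 and 3.12 after RA. Untreated replicate 4 was the highest of its group and RA replicate 2 the lowest of its group, without overlap. *Cldn6* rose by 1.53 (SE 0.24), or 2.88-fold (adjusted p = 0.00104). Its neighbour *Cldn9*, with a probe 1.141 kb away in mm9 on chromosome 17, read -2.27, -2.23, -1.61 and -1.14 in untreated cells and -0.33, -0.62, 0.20 and 0.68 after RA. *Cldn9* rose by 1.79 (SE 0.35, adjusted p = 0.00338), again with no overlap.

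A further 4 claudins were low or below detection in untreated cells. *Cldn8*, a claudin of the distal nephron and other tight epithelia, was not well above background on any untreated array (-7.42, -7.84, -7.88 and -7.43) and was so on all 4 RA arrays (-3.02, -4.18, -2.72 and -2.05). With RA the level was at least 6.29-fold higher (adjusted p = 3.9e-05), where the bound sets the RA mean against the lowest signal well above background on each untreated array. Bounds of this kind are approximate, because a probe that is not well above background can still read above that lowest signal. They hold for the scanner's own background correction. With normexp, another correction, run with an offset of 50, the measured difference of *Cldn8* was smaller (1.40 on the log2 scale). *Cldn11*, known from myelin and Sertoli cells, read -7.21, -7.05, -6.42 and -6.98 in untreated cells, none of them well above background, and -4.95, -4.89, -2.85 and -3.54 after RA. The RA arrays fell into a lower pair (replicates 1 and 2) and a higher pair (replicates 3 and 4), all of them above the untreated arrays, and their level was at least 3.01-fold higher (adjusted p = 0.00134) on the scanner's correction, with 0.66 measured under normexp. *Cldn10*, a claudin with ion-selective isoforms, was well above background on 1 untreated array and on all 4 RA arrays. It read -7.27, -5.06, -5.75 and -6.56 before and -4.31, -3.37, -4.09 and -4.14 after RA. The untreated arrays were the more scattered (SD 0.96 against 0.42), and the difference was 2.18 (SE 0.45, adjusted p = 0.0047). With normexp it was 0.46 and not called, so that the size of the change is uncertain. *Cldn1*, the barrier claudin of skin and liver, was well above background on 2 RA arrays and on no untreated array. Its call (adjusted p = 0.000186) comes with a computed bound of 1.10-fold. That is no true minimum, because the RA mean includes arrays that were not well above background.

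*Cldn5* and *Cldn26* were called lower, and both calls depended on the processing. *Cldn5*, the claudin of endothelial barriers, read -3.60, -3.49, -2.84 and -3.45 in untreated cells and -4.91, -4.11, -4.16 and -4.35 after RA, a difference of -1.04 (SE 0.24, adjusted p = 0.00803), which was -0.41 and not called both with normexp and quantile normalization together and in the deposited log2 table. The groups did not overlap, with untreated replicate 3 the highest array and RA replicate 1 the lowest. Of 6 endothelial markers none was called higher and 2 were called lower, beside 13.9% and 22.1% of all genes. *Cdh5* and *Emcn* were not well above background on any array. The summed level of the list (linear, in units of the 75th percentile) was 4.43 to 5.81 in untreated cells and 1.72 to 2.34 after RA. Most of that sum's fall came from *Vwf* (-4.91), whereas *Kdr* differed by -0.05 and *Tie1* was not called. The part of these cells in the result was not tested. The probe named *Cldn26* on the array, whose accession belongs to *Tmem114* in current RefSeq, read -4.19, -4.09, -4.46 and -4.55 in untreated cells and -4.86, -5.28, -4.79 and -5.10 after RA, a difference of -0.68 (SE 0.17, adjusted p = 0.0138). Its groups were apart by a narrow margin, and *Cldn26* was not called with quantile normalization (-0.37), with normexp (-0.31) or in the deposited log2 table (-0.07, adjusted p = 0.457).

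*Cldn4*, a close relative of *Cldn3*, was measured on every array and did not pass the test. It read -0.41, 1.75, -0.55 and 0.65 in untreated cells and 0.39, 0.40, 1.67 and 0.62 after RA, so that the highest array was untreated replicate 2 and the groups overlapped. The difference was 0.41 with a 95% interval from -0.78 to 1.60 (adjusted p = 0.535), and a second probe of the gene gave 0.71 (adjusted p = 0.289). *Cldn12*, a claudin without the usual binding motif for plaque proteins, differed by 0.38 (95% interval 0.06 to 0.70, adjusted p = 0.0619) with all RA arrays above all untreated ones.

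Of the other claudins, *Cldn2*, *Cldn14*, *Cldn15* and *Cldn23* were detected well above background in every untreated culture and gave differences of -0.55, -1.08, 0.40 and -0.05, none of them called. *Cldn15* passed after quantile normalization (0.66, adjusted p = 0.0109), *Cldn14* was called lower without RA replicate 3 (-1.42, adjusted p = 0.0228), and *Cldn2* was called lower with the mean of all its probes (-0.69, adjusted p = 0.0404). *Cldn19*, a partner of *Cldn16* in the kidney, was detected on 2 untreated arrays and on no RA array, with adjusted p = 0.0778, and the replicate number as a block (adjusted p = 0.045) or leaving out untreated replicate 2 (-1.77, adjusted p = 0.0446) brought it past the limit. *Cldn17* was well above background on 1 untreated and 2 RA arrays and differed by -0.08. *Cldn13*, *Cldn16*, *Cldn18*, *Cldn20*, *Cldn22*, *Cldn24* and the probe named *Cldn27* (*Tmem235* in current RefSeq) were not well above background on any array, and no level can be set between the conditions. Among these, *Cldn13* passed the limit with the replicate block (adjusted p = 0.0352), with the slide as a block (adjusted p = 0.0165) and without untreated replicate 4 (adjusted p = 0.0299).

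**Figure D2:**
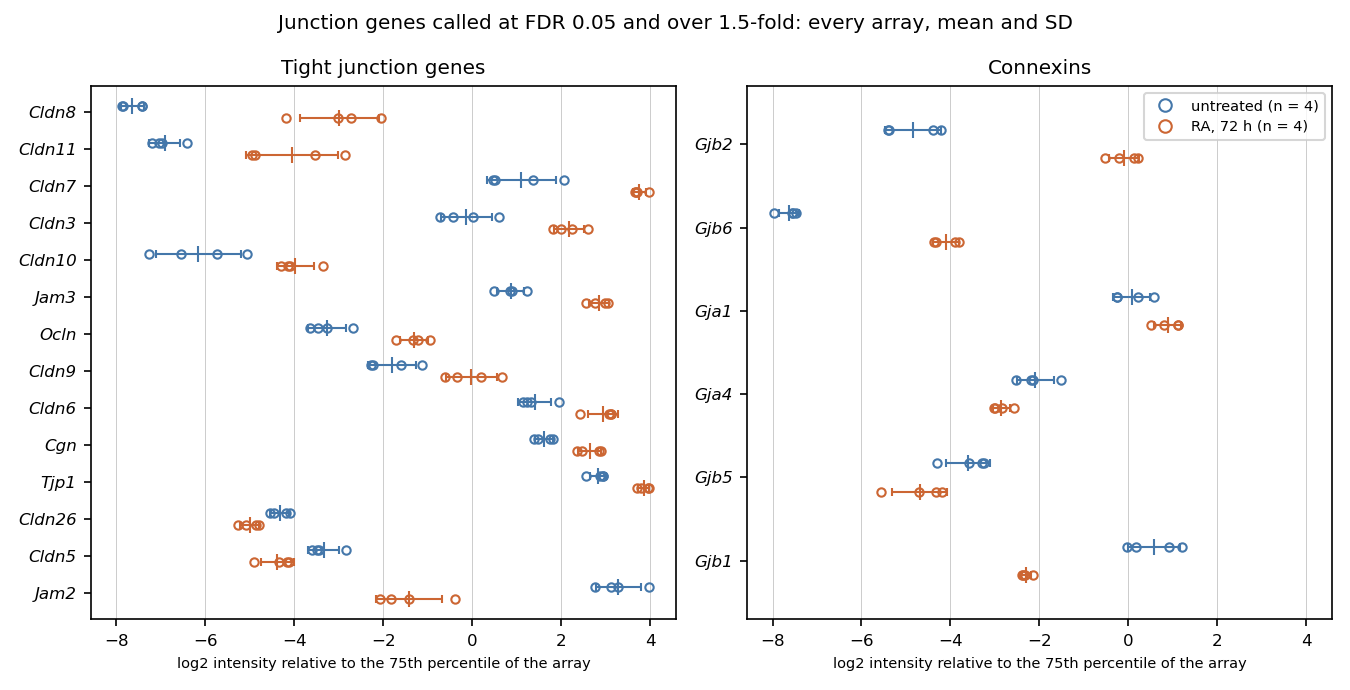
Log2 intensity relative to the 75th percentile of the array for 20 called genes that were well above background on all 4 arrays of a condition. Circles are single arrays, the vertical tick is the mean and the bar the SD of 4 arrays. *Gja1* and *Gjb5* are the genes whose arrays overlap between the conditions.

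Occludin and the JAM genes moved in different directions. *Ocln*, the first membrane protein known from tight junctions, read -3.46, -3.66, -3.27 and -2.68 in untreated cells and -1.21, -1.72, -1.34 and -0.95 after RA. Every RA array was higher than every untreated one, and the rise was 1.96 (SE 0.25), or 3.90-fold (adjusted p = 0.000322). A dimmer second probe of *Ocln* gave 1.20 and did not pass the test (adjusted p = 0.0641).

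*Jam2* and *Jam3* encode proteins that bind each other across neighbouring cells, and one fell while the other rose. *Jam2* read 3.13, 3.28, 2.77 and 3.97 in untreated cells and -1.42, -0.39, -2.06 and -1.82 after RA, a fall of 26.2-fold (-4.71, SE 0.39, adjusted p = 3.18e-05). The other probes of *Jam2* gave -6.98 and -4.50, with adjusted p-values of 4.38e-06 and 8.13e-06. RA replicate 2 was the highest of the RA arrays and still below every untreated array. *Jam3* read 0.48, 0.90, 1.24 and 0.85 in untreated cells and 2.77, 2.56, 3.06 and 3.00 after RA, a rise of 1.98 (SE 0.20), or 3.94-fold (adjusted p = 8.33e-05). *F11r*, the JAM gene of most epithelia, read 4.31, 4.78, 4.23 and 4.38 in untreated cells and 5.14, 4.39, 5.81 and 5.74 after RA. RA replicates 1, 3 and 4 were above all untreated arrays, and RA replicate 2 lay within the untreated range. The difference of 0.85 (SE 0.31) missed the limit (adjusted p = 0.0624), and without RA replicate 2 it was 1.14 (adjusted p = 0.00612). *F11r* was also called higher with normexp (0.89, adjusted p = 0.0156), with normexp and quantile normalization (1.07, adjusted p = 0.0313), in the deposited log2 table (1.08, adjusted p = 0.0312) and with dim probes left out (adjusted p = 0.0377).

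Of the 4 plaque genes 2 were called higher and 2 were not called, beside 13.9% higher of all genes. *Tjp1*, the scaffold ZO protein that binds claudins, read 2.93, 2.57, 2.94 and 2.88 in untreated cells and 3.98, 3.95, 3.72 and 3.80 after RA. *Cgn*, cingulin, read 1.40, 1.75, 1.47 and 1.81 in untreated cells and 2.85, 2.89, 2.47 and 2.36 after RA. Neither gene had overlapping groups, and both rose by 1.03, with an SE of 0.15 for *Tjp1* (adjusted p = 0.000623) and 0.18 for *Cgn* (adjusted p = 0.002). *Tjp3*, another ZO scaffold, differed by 0.20 (95% interval -0.37 to 0.77).

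Of 20 connexins 3 (15.0%) were called higher, 7 (35.0%) lower and 10 were not called, beside 13.9% and 22.1% of all genes, whereas quantile normalization, normexp and the deposited log2 table each left 3 higher and 3 lower. *Gjb2*, a connexin of the cochlea, skin and liver, read -5.40, -5.37, -4.38 and -4.22 in untreated cells, well above background on 2 of those arrays, and 0.23, -0.52, 0.12 and -0.21 after RA. The gap between the groups was far wider than the spread within them, and the difference was 4.75 (SE 0.32), or 26.9-fold (adjusted p = 1.21e-05). Untreated cells were close to the background, and the size depended on the processing. The log2 difference was 3.09 with normexp and its offset of 50, and 3.195 in the deposited log2 table, called in both.

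*Gjb6*, which is expressed with *Gjb2* in the cochlea and skin, was not well above background on any untreated array (-7.56, -7.97, -7.47 and -7.55) and was on all RA arrays (-3.81, -3.90, -4.37 and -4.33). Its level in RA-treated cells was at least 2.91-fold higher (adjusted p = 4.79e-06) on the scanner's correction, and with normexp the difference was 0.77 on the log2 scale. *Gja1*, the most widely expressed connexin, read -0.24, -0.26, 0.22 and 0.59 in untreated cells and 0.80, 1.13, 0.50 and 1.13 after RA. Untreated replicate 4 lay above RA replicate 3, and the difference of 0.81 (SE 0.24, adjusted p = 0.0264) lost its call without any one of untreated replicates 1 and 2 and RA replicates 1, 2 and 4.

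*Gjb1*, the connexin of liver and Schwann cells, read 0.92, 0.18, -0.02 and 1.20 in untreated cells and -2.31, -2.13, -2.36 and -2.38 after RA. The RA arrays lay within a narrow range below all untreated ones, and the fall was 7.30-fold (-2.87, SE 0.27, adjusted p = 6.55e-05).

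*Gja4* and *Gjb5* changed less and less firmly. *Gja4*, a connexin of endothelium and the oocyte, read -2.14, -1.51, -2.52 and -2.18 in untreated cells and -2.99, -2.58, -2.83 and -3.01 after RA, a difference of -0.76 (SE 0.23, adjusted p = 0.0263) with RA replicate 2 just below untreated replicate 3. *Gjb5*, found in trophoblast, read -3.59, -4.29, -3.28 and -3.24 in untreated cells and -4.19, -4.31, -4.71 and -5.55 after RA. Untreated replicate 2 lay below RA replicate 1, and the difference of -1.09 (SE 0.35, adjusted p = 0.0347) did not pass with the replicate number as a block (SE 0.38, adjusted p = 0.0684). Each of the 2 genes also lost its call when single arrays were left out: *Gja4* without untreated replicate 1 or 2 or RA replicate 1, 3 or 4, and *Gjb5* without untreated replicate 1, 3 or 4 or RA replicate 3 or 4.

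*Gja3* of the lens and *Gja10* of retinal horizontal cells were well above background on 2 untreated arrays and on no RA array. On the scanner's background correction their computed bounds were 1.55-fold and 1.61-fold lower after RA (adjusted p = 0.0049 and 0.0309). These are no true minimum, because the untreated means include arrays that were not well above background. In the deposited log2 table *Gja3* differed by -0.09 and *Gja10* by -0.11, neither of them called. *Gja10* also lost its call without untreated replicate 1 (adjusted p = 0.0784) or untreated replicate 2 (adjusted p = 0.0759). *Gjc1*, a connexin of the embryonic heart, was measured on all arrays and differed by 0.21 (95% interval -0.31 to 0.73). *Gjd3* was detected on 1 RA array, and *Gja5*, *Gja6*, *Gjc3*, *Gjd2*, *Gjd4* and *Gje1* were not well above background on any array. Among these, *Gjc3* passed the limit without RA replicate 4 (-1.28, adjusted p = 0.0447).

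Several of these genes lie side by side, and their changes can be read in pairs. On chromosome 14 *Gja3* was called lower, whereas *Gjb2*, with a probe 62.9 kb away in mm9, and *Gjb6*, 24.6 kb beyond it, were called higher. On chromosome 5 the probe of *Cldn4* lies 41.9 kb from that of *Cldn3*, and only *Cldn3* was called. On chromosome 17 *Cldn6* and *Cldn9* both rose. On chromosome 16 *Cldn8* rose while *Cldn17*, 55.0 kb away, differed by -0.08. Whether neighbouring genes were more alike than distant ones was not tested.

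**Figure D3:**
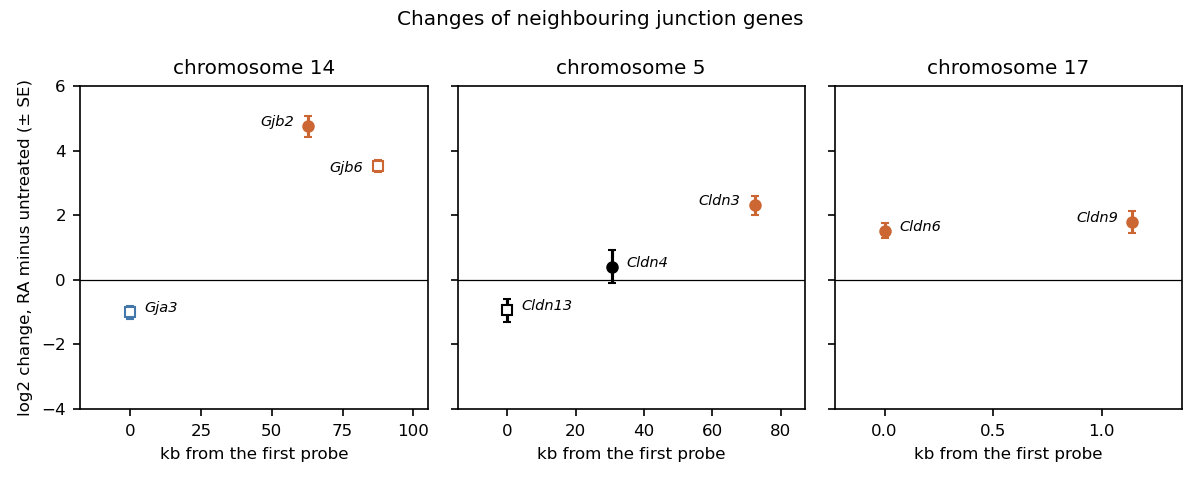
Difference in log2 intensity (RA minus untreated, with its standard error) of neighbouring junction genes against the distance of their probes in mm9 from the first probe of the group. Orange marks genes called higher, blue lower and black not called; open squares are not well above background in at least 1 condition. On chromosome 14 *Gja3* lies below 0 and *Gjb2* and *Gjb6* lie above it.

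The arrays of a condition were not all alike. Of the 15 called genes that were well above background on all 8 arrays, RA replicate 2 was the RA array nearest to the untreated mean in 10, namely 6 of the 6 that fell and 4 of the 9 that rose. RA replicates 3, 4 and 1 were nearest in 4, 1 and 0 genes. The summed level of the ES cell markers was 252 to 355 in untreated cells and 7.36 to 29.2 after RA, with the highest of the RA arrays again replicate 2. For the genes that respond to RA the sum was 27.9 and 25.1 on RA replicates 1 and 2. It was 108 and 73.9 on RA replicates 3 and 4, the same pairs as for *Cldn11*. Among untreated arrays, replicate 4 held the highest value in 7 of the 9 genes that rose. The part of these differences in the calls was not tested beyond leaving out each array, after which between 14 and 15 of the genes were called higher and between 7 and 10 lower. By the slide barcodes in the file headers the arrays were on 2 slides, each scanned once and each with 2 arrays of each condition. On slide 1 alone 12 of the genes were called higher and 6 lower, on slide 2 alone 9 and 4, and with the slide as a block 15 and 11. Untreated replicates 2 and 4 were on slide 2, and *Cldn7* rose by 3.35 on slide 1 alone and by 1.94 on slide 2 alone.

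The other genes of the tight junction were examined in lists. Of 16 membrane partners on the array, 5 were called higher, 4 lower and 7 not called, beside 13.9% higher and 22.1% lower of all genes. *Marveld2* (tricellulin, at corners where cells meet) rose by 3.04 (SE 0.21, adjusted p = 1.25e-05) and the receptor *Cxadr* by 1.65 (SE 0.18, adjusted p = 0.000157). *Ildr1*, which recruits tricellulin to corners, fell by 4.51 (SE 0.25, adjusted p = 5.11e-06). *Lsr*, of the same list and brighter than *Ildr1* in untreated cells, was called higher, by 0.83 (SE 0.16, adjusted p = 0.00309). *Amica1*, a JAM-like protein, fell by 3.52 (SE 0.40, adjusted p = 0.000182), with -2.20 under normexp and -2.05 in the deposited log2 table, and *Cldnd2* fell by 0.69 (adjusted p = 0.0163). The call of *Cldnd2* was lost with quantile normalization (-0.39), with normexp (-0.37) and in the deposited log2 table (-0.14).

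Of 28 plaque and polarity scaffolds, 10 were called higher, 2 lower and 16 not called, against the same 13.9% and 22.1% of all genes. *Crb2*, a polarity protein of the apical membrane, rose by 4.23 (SE 0.22, adjusted p = 4.26e-06), *Amot*, a scaffold of Hippo signalling, by 3.69 (SE 0.20, adjusted p = 4.68e-06), and *Inadl* (Patj), which joins the Crumbs complex to ZO proteins, by 3.34 (SE 0.23, adjusted p = 1.23e-05). *Arhgef18*, an activator of RhoA at junctions, fell by 0.91 (SE 0.15, adjusted p = 0.00159), and *Pard6a* of the Par complex by 0.76 (SE 0.20, adjusted p = 0.0173), a call lost without RA replicate 1 or 4. Among the pannexins, which form channels without joining cells, *Panx1* rose by 0.83 (SE 0.14, adjusted p = 0.00167), and *Panx2* and *Panx3* were not well above background on any array.

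Of 12 transcription factors known to act on junction genes, 4 were called higher, 4 lower and 4 not called, again beside 13.9% and 22.1% of all genes. *Zeb2*, *Twist1* and *Snai2*, which repress epithelial genes, rose by 3.47, 2.69 and 2.03 (SE 0.28, 0.25 and 0.29). *Grhl3*, *Ovol1* and *Grhl1*, which are known to maintain epithelia, fell by 2.05, 2.05 and 2.03 (SE 0.16, 0.31 and 0.19). The size for *Ovol1* was -0.94 with normexp and -0.72 in the deposited log2 table, called in both. The adjusted p-values of these 6 genes ran from 2.38e-05 to 0.000872. Among the genes not called were *Grhl2* (-0.44, adjusted p = 0.0955), *Ovol2* (-0.20, adjusted p = 0.31) and *Snai1* (0.76, adjusted p = 0.0693). The medians of the 4 lists were 0.20 for membrane partners, 0.37 for scaffolds, 0.69 for pannexins and -0.18 for transcription factors, beside -0.28 for all genes.

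Markers of other cell types were read on the same arrays, where 13.9% of all genes were called higher and 22.1% lower. All 9 markers of primitive, visceral and parietal endoderm were called higher, and their summed level went from 1.48 to 2.50 in untreated cells to 23.9 to 40.6 after RA. All 7 of mesenchyme and smooth muscle were called higher, with sums of 8.23 to 11.2 and 354 to 576. Of 6 markers of simple epithelium, 4 keratins were called higher (*Krt8* by 5.63), whereas *Cdh1* (-0.02) and *Epcam* (-0.50) were not called, and the sums were 36.5 to 45.7 and 520.0 to 645. Of 5 trophoblast markers 4 were called higher, of 5 neural markers 1 was higher and 1 lower, and of 5 glial markers 2 were higher. The part of each of these cell types in the changes of the junction genes was not tested.

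For genes near the detection limit the size of the change depended on how the background was processed. Normexp was run only with an offset of 50, and the part of the offset was not tested. With normexp in place of the scanner's own correction, *Gjb2* rose by 3.09, *Cldn8* by 1.40, *Gjb6* by 0.77 and *Cldn11* by 0.66, all still called. *Cldn10* (0.46) and *Cldn1* (0.20) lost their calls. Brighter genes such as *Cldn7* (2.63), *Cldn3* (2.22), *Jam3* (1.95) and *Tjp1* (1.05) hardly moved. Of the 10 falling genes 4, among them *Jam2* and *Gjb1*, were called under each of the 21 planned settings, whereas *Gja3*, *Gja4*, *Gja10*, *Gjb5* and *Cldn26* lost their calls with quantile normalization, with normexp and in the deposited log2 table. Of the rising genes, 11 of 15 were called under each of these settings, the exceptions being *Gja1*, *Cldn1*, *Cldn10* and, in a test against a 1.5-fold change only, *Cgn*.

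**Figure D4:**
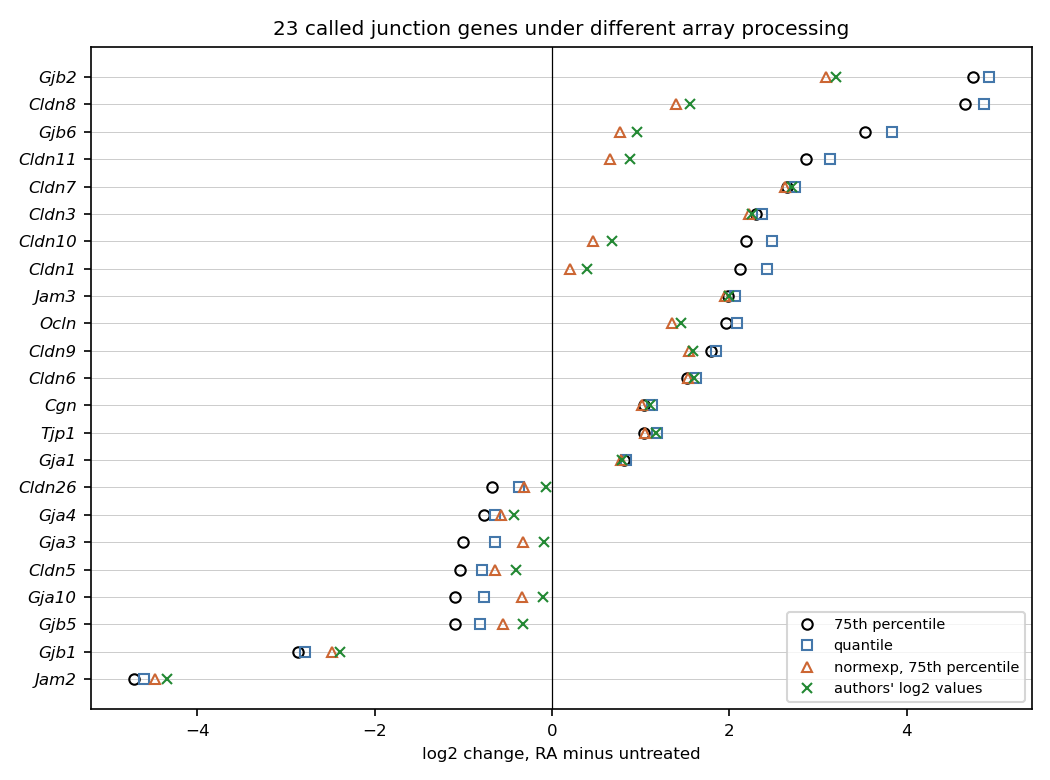
Difference in log2 intensity (RA minus untreated) of 23 called genes under 4 ways of processing the arrays. Genes that were dim in untreated cells, such as *Cldn8* and *Gjb6*, shrink most with normexp and in the deposited log2 table, and the weakest falls approach 0, while no point changes side.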

How the data were processed

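The arrays of E14Tg2A.4 ES cells were 4 untreated and 4 treated with RA for 72 h. The authors deposited Agilent Feature Extraction output (version 10.7.3.1, per the file headers), with a processed intensity per spot that is background-corrected and not scaled between arrays. A deposited series table holds the authors' own normalized log2 values, made by steps not given in the sources used here. The 75th percentile of each array over 59305 spots was subtracted from log2 of its processed intensity (R, version 4.3.3), control spots (3671) and outlier spots were left out, and spots of a probe were averaged. The RA effect was fitted by limma (version 3.58.1; lmFit, then eBayes), with p-values adjusted by Benjamini-Hochberg for 55681 probes, at an FDR of 0.05 and a fold above 1.5, as the study's methods state. A gene that was well above background on no array of a condition was given a bound. The labels number the replicates in both conditions. Deviations from the condition means of same-numbered arrays correlated at 0.186, 0.189, 0.104 and 0.151 over 27493 probes, while the highest values between differently numbered arrays were 0.142 and 0.130. The labels and the study's methods do not mention pairing. By this check equal numbers may pair the cultures, but no block was used in the fit, and the replicate block was an alternative. Alternatives were quantile normalization, normexp (offset 50), both together, the authors' values, dim probes left out, outlier spots kept, slide or replicate blocks, each array left out, other limits on the fold, the mean of a gene's probes and dim genes at their bound. Some members and listed genes are not reported here. Genes named in the text are the other members, values on every array being given for called and detected ones, and up to 3 rising and 3 falling genes of each list. *Grhl2*, *Ovol2* and *Snai1* were named without a call. Members without a call were named by role. The steps were tested on simulated data. The members and lists were chosen with earlier results of these data known. *Clmp*, *Map2* and *Tfap2c* were not matched on the array. The number of arrays limits the precision.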

Additional observations from a re-analysis of the deposited data

Results flagged for a closer look

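In all, 3 arrays stood apart from the other 3 of their condition, among 58 groups of 4 arrays examined, where chance alone gives about 2.9. *Tjp1* read 2.57 on untreated replicate 2 and 2.88 to 2.94 on the others. *Cldn6* read 2.43 on RA replicate 2 and 3.08 to 3.13 on the others. *Cldn2* read -5.36 on RA replicate 4 and -3.87 to -3.78 on the others. Each of these was still well above background.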

How the results depend on the processing

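The count of junction genes called higher, 15, became 9 with slide 2 alone, and the count called lower, 10, became 5 with quantile normalization, 5 with normexp, 4 with both, 4 with the authors' values, 4 with a test against a 1.5-fold change, 6 with slide 1 alone and 4 with slide 2 alone. The slides alone were chosen after seeing the data. Of the other junction genes, 20 were higher, 13 with slide 2 alone, and 10 were lower, 5 with the test against 1.5-fold, 5 with slide 1 alone, 6 with slide 2 alone and 5 with a fold above 2. Over the whole array 7196 probes were higher, which became 4171 with the test against 1.5-fold, 4206 with slide 1 alone and 3964 with slide 2 alone. The 12044 lower probes became 6603 with normexp and quantile normalization, 6583 with the authors' values, 5728 with the test against 1.5-fold, 6348 with slide 1 alone and 5453 with slide 2 alone. Leaving out each array gave 14 to 15 junction genes higher and 7 to 10 lower, 20 to 22 and 8 to 10 of the other junction genes, and 6549 to 7281 and 10601 to 12676 probes. The sign turned for *Tjp3* (-0.23) and *Cldn4* (-0.16) with slide 2 alone and for *Gjc1* without untreated replicate 3 (-0.016, with 0.36 as the highest value when an array was left out), none of which was called. The replicate block gave 15 junction genes higher and 11 lower, and beside the calls of *Gjb5*, *Cldn13* and *Cldn19* it changed none of the 53. For *Cldn1*, *Cldn8*, *Cldn11* and *Gjb6*, signals below background in untreated cells leave only a bound on the change.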
